A study of Macaca fascicularis with 20 samples.

Results

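The microRNAs miR-7 and miR-129 were followed through 7 pieces cut by laser from macaque fetal visual cortex. All rows named mir-7 or mir-129 were taken, with both strands of the hairpin (the 5p and the 3p arm). This gave 4 arms of 1656 listed arms. All 4 passed the filter on low counts, which left 1139 arms for testing. The names carry no locus suffix, so hairpins that share a name cannot be told apart here. No mature sequence of either microRNA is printed, because the reference used here holds none.

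Small RNA was sequenced from tissue of the crab-eating macaque, Macaca fascicularis. The cortical plate (CP), the layer that newborn neurons enter, was compared with the outer subventricular zone (OSVZ), a deep pool of dividing cells that primates have enlarged, and with the ventricular zone (VZ), the layer of radial glia that lines the ventricle. Each zone was taken in visual areas 17 and 18, and the OSVZ of area 17 was split into an outer, basal piece (OSVZ_17ext) and an inner, apical piece (OSVZ_17int). Each of the 7 regions had 2 libraries, replicate 1 from embryonic day 80 (set 1) and replicate 2 from embryonic day 79 (set 2), which gave 4 CP, 6 OSVZ and 4 VZ libraries. No genotype or treatment is given in the labels for any group. The labels do not say if a set is 1 animal or if a library pooled animals, so the spread that the p-values rest on may be partly technical. A dissected piece is a mixture of cells, and fewer cells of a type cannot be told apart from less RNA per cell.

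A microRNA hairpin is trimmed to a short duplex, and a strand of it guides Argonaute proteins to complementary sites in messenger RNAs, which are then repressed. miR-7 is conserved from insects to mammals and is abundant in neuroendocrine cells and neurons, where the circular RNA CDR1as binds it. A copy of its hairpin lies in an intron of HNRNPK in mammals, and in the mouse cortex miR-7 acts on the production of intermediate progenitors. miR-129 is enriched in brain. In cultured rat neurons miR-129-5p takes part in synaptic downscaling, and in cultured human cells miR-129-3p promotes the assembly of cilia.

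Library totals lay between 3603478 and 9517217 counts (median 6729539), and the 4 arms together took between 0.0818% and 0.562% of a library. Levels are TMM-scaled CPM, the counts of an arm per unit of library size. Mature arms are about equally long, so no length scaling was applied. The share of all counts on 5p arms was 84.7% to 88.8% in CP, 62.9% to 85.02% in OSVZ and 62.9% to 81.1% in VZ. In the germinal zones, every set 1 library had a lower 5p share than every set 2 library. Among the VZ libraries, replicate 1 of VZ_18 had the highest summed levels of the multiciliated, sensory, erythroid and oligodendrocyte marker lists. VZ_18 replicate 1 and VZ_17 replicate 2 were named as standing apart in earlier work on these libraries. Zone differences in the level of a member arm that moved by more than 1.5 times without them are given both ways. The ratios between arms were not recomputed without both of them, so how far those ratios rest on these libraries is not known.

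miR-7-3p was high in CP and low in both germinal zones. In CP it had 1049.7 and 1376 CPM in area 17 and 1365 and 1602 CPM in area 18. In OSVZ it had 298 and 329 CPM in the outer piece of area 17, 464 and 386 CPM in the inner piece, and 361 and 358 CPM in area 18. In VZ it had 181 and 278 CPM in area 17 and 315 and 201 CPM in area 18. Every CP library therefore lay above every germinal zone library, while OSVZ and VZ libraries overlapped. Within a zone the values stayed close, with the highest library 1.53 times the lowest in CP, 1.56 times in OSVZ and 1.74 times in VZ.

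The partner strand miR-7-5p, the strand usually taken as the guide of miR-7, differed less between zones. Its levels in CP were 741 and 706 CPM in area 17 and 631 and 852 CPM in area 18. In OSVZ they were 628 and 698 CPM in OSVZ_17ext, 893 and 270.3 CPM in OSVZ_17int, and 361 and 674 CPM in OSVZ_18. In VZ they were 540.0 and 176 CPM in area 17 and 286 and 479 CPM in area 18. CP libraries lay above all VZ libraries but overlapped with OSVZ, where the inner piece held both the highest and the lowest value. The ratio of the highest to the lowest library was 1.35 in CP, 3.30 in OSVZ and 3.06 in VZ.

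miR-129-3p, the more abundant strand of miR-129, was high in CP and intermediate in VZ. CP libraries had 1022 and 1356 CPM in area 17 and 1405 and 2849 CPM in area 18. OSVZ libraries had 233 and 291 CPM in the outer piece of area 17, 338 and 479 CPM in the inner piece, and 249 and 344 CPM in area 18. VZ libraries had 612 and 1173 CPM in area 17 and 315 and 940.5 CPM in area 18. CP lay above every OSVZ library and overlapped with VZ through set 2 of VZ_17. In all 7 regions the set 2 library was the higher of the pair.

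miR-129-5p was the scarcest of the 4 arms on average in every zone. It had 193 and 56.2 CPM in CP_17 and 227 and 126 CPM in CP_18. It had 37.8 and 28.3 CPM in OSVZ_17ext, 39.7 and 69.3 CPM in OSVZ_17int, and 44.5 and 46.4 CPM in OSVZ_18. It had 136 and 164 CPM in VZ_17 and 103 and 84.8 CPM in VZ_18. All VZ libraries lay above all OSVZ libraries, and CP, which spanned 4.04 times from its lowest to its highest library, overlapped with both.

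**Figure D1:**
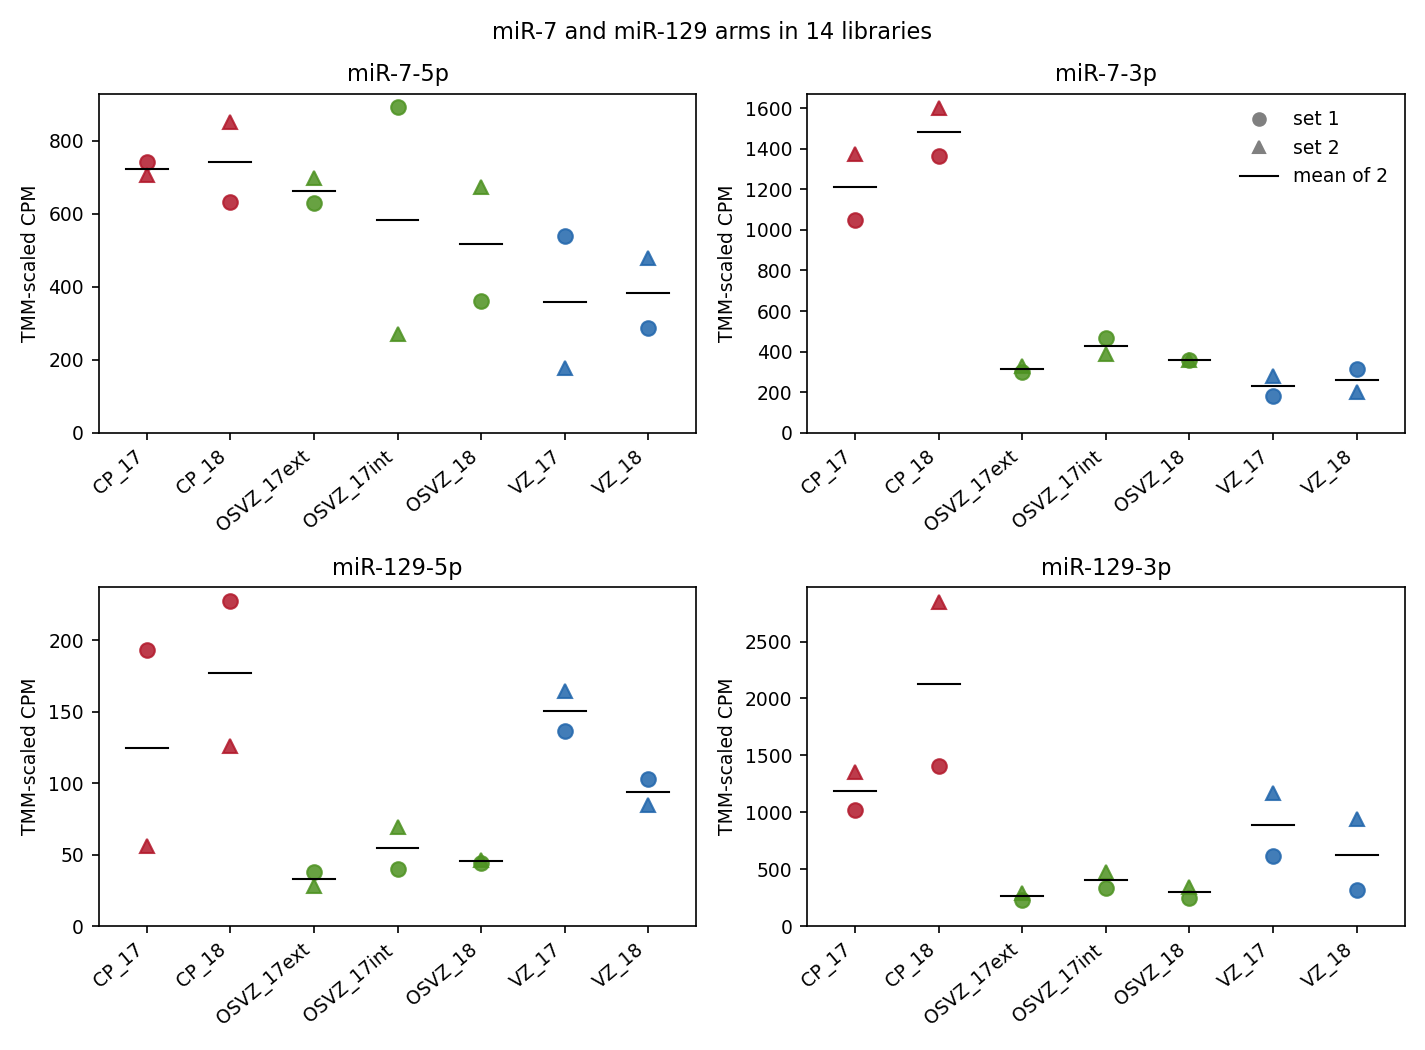
Level of each arm of miR-7 and miR-129 in every library, in TMM-scaled CPM on a linear axis from 0, for the 7 regions with CP left of OSVZ and VZ. Circles are set 1, triangles set 2 and bars the mean of 2 libraries. The miR-7-3p points of CP, 1049.7 to 1602 CPM, stand above all germinal zone points, while miR-129-5p is lowest in OSVZ at 28.3 to 69.3 CPM.

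Ranked by region means, CP_18 came highest for all 4 arms. Each mean rests on 2 libraries, so neighbouring regions can easily separate or overlap by chance. The share of all tested arms that separate between such regions was not computed. The overlaps given here and for miR-129 below are therefore descriptive only. For miR-7-3p it was followed by CP_17 (1213 CPM), OSVZ_17int (425 CPM), OSVZ_18 (359 CPM), OSVZ_17ext (313 CPM), VZ_18 (258 CPM) and VZ_17 (229.8 CPM). The libraries of neighbouring regions in that order overlapped for CP_18 and CP_17, for OSVZ_17ext and VZ_18, and for VZ_18 and VZ_17. For miR-7-5p the order was CP_18 (742 CPM), CP_17 (723 CPM), OSVZ_17ext (663 CPM), OSVZ_17int (582 CPM), OSVZ_18 (518 CPM), VZ_18 (383 CPM) and VZ_17 (358 CPM), and all neighbours overlapped except CP_17 and OSVZ_17ext. Both orders run from plate to OSVZ to VZ.

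The orders of miR-129 put VZ above OSVZ instead. For miR-129-3p the means were 2127 CPM in CP_18, 1189 CPM in CP_17, 892 CPM in VZ_17, 628 CPM in VZ_18, 409 CPM in OSVZ_17int, 297 CPM in OSVZ_18 and 262 CPM in OSVZ_17ext, and among neighbours only CP_18 and CP_17 did not overlap. For miR-129-5p they were 177 CPM in CP_18, 150.2 CPM in VZ_17, 125 CPM in CP_17, 93.8 CPM in VZ_18, 54.5 CPM in OSVZ_17int, 45.4 CPM in OSVZ_18 and 33.0 CPM in OSVZ_17ext. Here the neighbours VZ_18 and OSVZ_17int did not overlap, nor did OSVZ_18 and OSVZ_17ext. OSVZ_17ext was the lowest region for both miR-129 arms.

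Comparing CP with VZ asks how the arms differ between tissue rich in young neurons and tissue rich in dividing radial glia. miR-7-3p averaged 1348 ± 227 CPM in CP (SD, n = 4) and 244 ± 63.1 CPM in VZ (n = 4), and was 5.49-fold higher in CP (log2 difference 2.46 ± 0.38 (SE), edgeR quasi-likelihood F test with Benjamini-Hochberg adjustment, adjusted p = 1.25e-05). miR-129-3p averaged 1658 ± 812 CPM in CP and 760.1 ± 375 CPM in VZ and was 2.22-fold higher in CP (1.15 ± 0.36, adjusted p = 0.0416). Both rose in both sets, miR-7-3p by 2.32 and 2.65 and miR-129-3p by 1.45 and 0.90 on the log2 scale. These 2 of 4 member arms compare with 4.74% of the 1139 tested arms called higher in CP.

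The 5p arms did not pass in that comparison. miR-7-5p averaged 732 ± 92.1 CPM in CP and 370.4 ± 169 CPM in VZ, with a log2 difference of 0.998 ± 0.42 (95% interval 0.15 to 1.84, adjusted p = 0.161 by edgeR). It was higher in CP by 0.80 in set 1 and 1.41 in set 2. miR-129-5p averaged 151 ± 75.6 CPM in CP and 122 ± 35.3 CPM in VZ, with a log2 difference of 0.26 ± 0.49 (interval -0.74 to 1.25, adjusted p = 0.801 by edgeR). Its direction was not settled, at 0.82 in set 1, -0.48 in set 2 and 0.13 without the 2 VZ libraries named as standing apart. Relative to the median of all tested arms it stood at 0.035 with TMM, 0.059 with DESeq2 size factors and -0.00792 with library totals. The groups did not overlap for both miR-7 arms, 2 of 4 members, against 10.1% of all tested arms with every CP library above every VZ library.

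The miR-7-3p call kept its side of the threshold under 7 other settings and without each of the 14 libraries in turn. The miR-129-3p call did not: it was lost under 5 of 7 other settings, among them the fit with no replicate block (1.09, adjusted p = 0.214), and without any of 13 of the 14 libraries. Its lowest value, 0.73 (adjusted p = 0.376), came without VZ_18 replicate 1, and its highest, 1.42 (adjusted p = 0.0201), came without VZ_18 replicate 2, the library whose removal kept the call. Without the 2 VZ libraries named as standing apart it was 0.79 (adjusted p = 0.318), and over all other settings its adjusted p ran from 0.0257 to 0.318. miR-7-5p moved the other way without VZ_17 replicate 1, to 1.56 (adjusted p = 0.0121, edgeR), and was 0.29 without the 2 VZ libraries.

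Against OSVZ, 3 of the 4 arms were higher in CP, where 4.21% of all tested arms were called higher. These comparisons share the CP libraries with those against VZ, so they are no separate evidence of a high level in CP. miR-129-3p, at 1658 ± 812 CPM in CP and 322 ± 89.0 CPM in OSVZ (n = 6), was 4.98-fold higher in CP (2.32 ± 0.34, adjusted p = 1.25e-05 by edgeR). miR-7-3p, at 1348 ± 227 CPM in CP and 366 ± 57.0 CPM in OSVZ, was 3.69-fold higher (1.89 ± 0.34, adjusted p = 0.000188). miR-129-5p, at 151 ± 75.6 CPM in CP and 44.3 ± 13.8 CPM in OSVZ, was 3.22-fold higher (1.69 ± 0.46, adjusted p = 0.018), by 2.32 in set 1 and 0.89 in set 2.

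The exception was miR-7-5p, at 732 ± 92.1 CPM in CP and 587 ± 231 CPM in OSVZ. Its log2 difference of 0.37 ± 0.38 did not pass (interval -0.41 to 1.15, adjusted p = 0.755 by edgeR), although its 2 sets gave 0.39 and 0.52, and it was 0.23 without the 2 VZ libraries named as standing apart. Every CP library lay above every OSVZ library for both 3p arms, 2 of 4 members, against 5.71% of all tested arms. The calls of both 3p arms were kept under 7 other settings and without each library in turn. The miR-129-5p call was lost with library totals (1.41, adjusted p = 0.122) and with no filter (1.52, adjusted p = 0.110), and over its 7 settings the adjusted p ran from 0.0054 to 0.122. It was also lost without CP_17 replicate 1 (1.08, adjusted p = 0.439), CP_18 replicate 1 (1.53, adjusted p = 0.0899), OSVZ_17int replicate 1 (1.40, adjusted p = 0.097), OSVZ_18 replicate 1 (1.57, adjusted p = 0.187) or OSVZ_18 replicate 2 (1.66, adjusted p = 0.139). All of these left it higher in CP.

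Comparing OSVZ with VZ sets the germinal layers against each other. By edgeR 0 of 4 member arms passed, where 0.0878% of the tested arms were called, 113 arms had an unadjusted p under 0.05, and the DESeq2 Wald test called 27 arms. Both miR-129 arms ranked high in the order of unadjusted p-values. miR-129-3p averaged 322 ± 89.0 CPM in OSVZ, against 760.1 ± 375 CPM in VZ, and had a log2 difference of -1.16 ± 0.33 (edgeR, adjusted p = 0.254), which was position 5 by p-value. miR-129-5p averaged 44.3 ± 13.8 CPM in OSVZ, against 122 ± 35.3 CPM in VZ, and had a difference of -1.43 ± 0.45 (edgeR, adjusted p = 0.298), which was position 13.

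Both miR-129 differences were below 0 in both sets, at -0.73 and -1.55 for miR-129-3p and at -1.50 and -1.37 for miR-129-5p. All OSVZ libraries of miR-129-5p lay below all VZ libraries, 1 of 4 members, against 0.878% of tested arms. DESeq2 called both arms lower in OSVZ, miR-129-3p at -1.26 (adjusted p = 0.00358) and miR-129-5p at -1.50 (adjusted p = 0.0466). Over all 7 other settings the adjusted p ran from 0.00358 to 0.621 for miR-129-3p and from 0.0466 to 0.621 for miR-129-5p. For miR-7 the OSVZ minus VZ values were 0.57 ± 0.34 for miR-7-3p (adjusted p = 0.535) and 0.63 ± 0.39 for miR-7-5p (adjusted p = 0.538), neither of which passed. The miR-7-5p value was 0.057 without the 2 VZ libraries named as standing apart. Without single libraries it ran from 0.20 (VZ_17 replicate 2) to 1.26 (VZ_17 replicate 1). miR-7-3p was 0.28 with library totals and 0.84 without the 2 VZ libraries. The size of the miR-7 differences between the germinal zones was therefore not settled by these libraries.

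**Figure D2:**
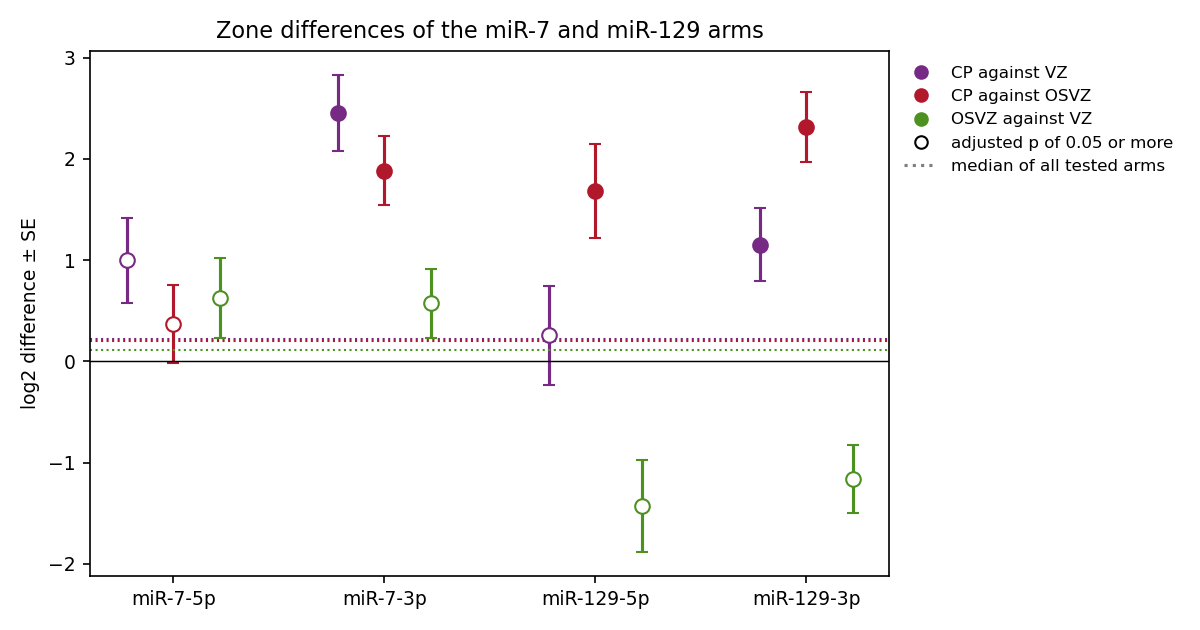
Log2 difference of each member arm for CP against VZ, CP against OSVZ and OSVZ against VZ, with bars of 1 SE from the edgeR fit and dotted lines at the median of all tested arms. Filled markers had an adjusted p under 0.05, open ones did not. miR-7-3p (2.46 and 1.89) and miR-129-3p (1.15 and 2.32) passed in both CP comparisons, while the bar of miR-129-5p for CP against VZ (0.26) crossed 0 and changed sign with the scaling.

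The scaling shifts all arms together. The median of all tested arms was 0.22 for CP against VZ with TMM, -0.023 with DESeq2 size factors and -0.21 with library totals. Relative to that median, miR-7-3p stood 2.24, 2.23 and 2.14 higher in CP under the 3 scalings, and miR-129-3p stood 0.93, 0.93 and 0.94 higher. For CP against OSVZ the median was 0.20, 0.045 and -0.035, and miR-129-3p stood 2.11, 2.12 and 2.11 above it. For OSVZ against VZ it was 0.12, 0.019 and -0.12, and miR-129-5p stood at -1.54, -1.52 and -1.51 relative to it. With library totals, 32 arms were called higher and 37 lower in CP than in VZ, against 54 higher and 30 lower with TMM.

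The balance between the strands of a hairpin was compared within each library, where no scaling between libraries enters. The 3p to 5p ratio of miR-7 counts was 1.42 and 1.95 in CP_17 and 2.16 and 1.88 in CP_18. In OSVZ it was 0.474 and 0.471 in the outer piece, 0.520 and 1.43 in the inner piece, and 0.999 and 0.531 in area 18. In VZ it was 0.336 and 1.58 in area 17 and 1.10 and 0.421 in area 18. The 3p strand thus outnumbered the 5p strand in all 4 CP libraries, in 1 of 6 OSVZ libraries and in 2 of 4 VZ libraries. Those VZ libraries were VZ_17 replicate 2 and VZ_18 replicate 1, both named as standing apart.

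As mean log2 ratio this was 0.87 ± 0.26 in CP (SD, n = 4) and -0.58 ± 0.68 in OSVZ (n = 6), a difference of 1.46 (2-sided exact permutation test, p = 0.0143, adjusted p = 0.0857 over 9 ratio tests). Against VZ, at -0.51 ± 1.07 (n = 4), the difference was 1.38 (exact p = 0.0571, adjusted p = 0.171), in a comparison where the smallest possible p is 0.0286. Neither difference passed after adjustment. The lowest CP ratio, 1.42 in CP_17 replicate 1, lay below OSVZ_17int replicate 2 (1.43) and VZ_17 replicate 2 (1.58), and CP overlapped with both zones only through these libraries. Within each set, every CP library lay above every OSVZ and VZ library. The share of names that separate in this way was not computed. Of 101 names whose arms both averaged 10 CPM or more, 26.7% had an exact p under 0.05 for this ratio in CP against OSVZ, 15.8% in CP against VZ and 3.96% in OSVZ against VZ. The median change over those names was -0.25, -0.20 and 0.012, and miR-7 stood in position 8, 13 and 57 from the top. This survey of names was chosen after values had been seen, and it covers libraries whose overall 5p share also differs between zones and sets. The part of that share in the miR-7 ratio was not tested.

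miR-129 carried more 3p than 5p counts in every library. The 3p to 5p ratio was 5.29 and 24.1 in CP_17 and 6.18 and 22.6 in CP_18, and thus high in set 2 and low in set 1 of both areas. It ran from 5.59 to 10.3 in OSVZ with a median of 7.16. In VZ it was 4.49 and 7.14 in area 17 and 3.07 and 11.1 in area 18. With the sets pooled the zones overlapped, and no difference passed the exact permutation test, which ignored the sets. CP against VZ differed by 1.01 (adjusted p = 0.364) and CP against OSVZ by 0.66 (adjusted p = 0.364). OSVZ against VZ differed by 0.35 (adjusted p = 0.423). Within each set, both CP libraries lay above both VZ libraries. CP and OSVZ libraries overlapped in set 1, while in set 2 CP lay above OSVZ. For CP against VZ, permuting within sets allows no p under 0.05, so that test cannot decide. The share of names that separate in this way was not computed.

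**Figure D3:**
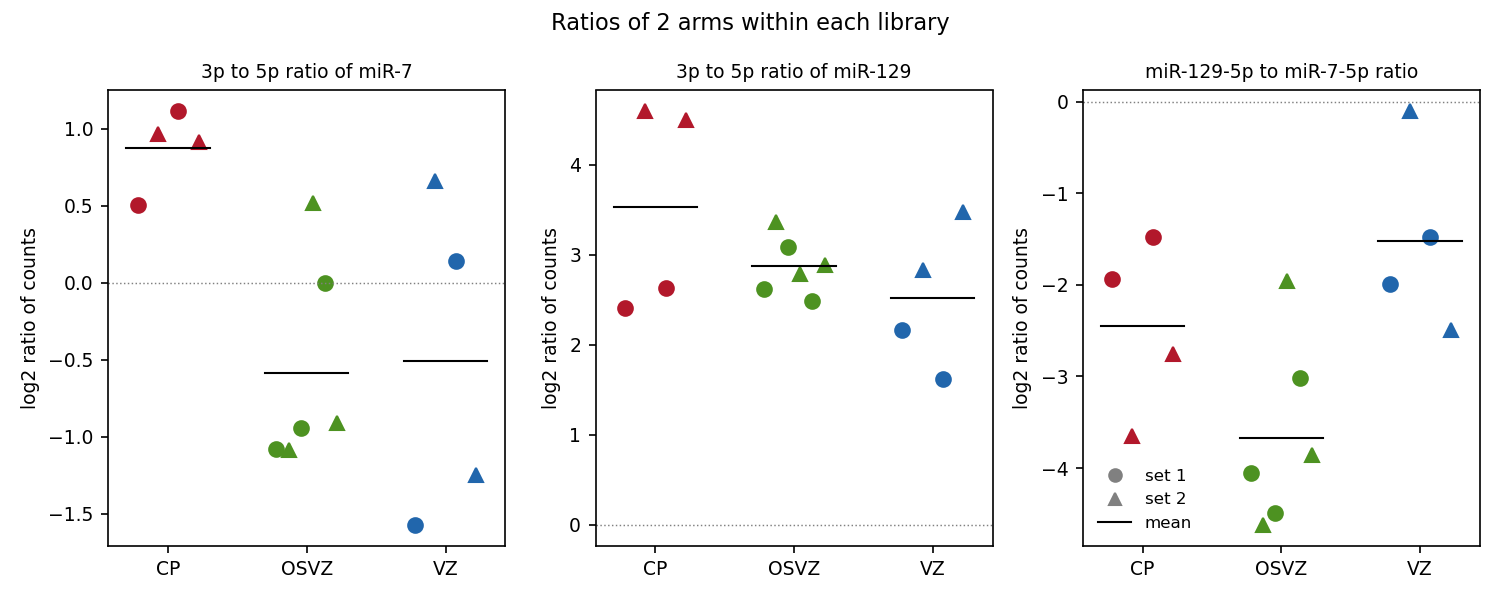
Within-library log2 ratios of counts in CP, OSVZ and VZ: 3p to 5p of miR-7, 3p to 5p of miR-129, and miR-129-5p to miR-7-5p. Circles are libraries of set 1, triangles of set 2, and bars are zone means. The miR-7 ratio averaged 0.87 in CP, -0.58 in OSVZ and -0.51 in VZ, and the miR-129-5p to miR-7-5p ratio was lowest in OSVZ.

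The 2 microRNAs were also set against each other within each library. The count ratio of miR-129-5p to miR-7-5p ran from 0.0796 to 0.360 in CP, from 0.0406 to 0.257 in OSVZ with a median of 0.0646, and from 0.177 to 0.931 in VZ. The log2 ratio in OSVZ was lower than in VZ by a difference of -2.15 (exact permutation p = 0.019, adjusted p = 0.0857), that between CP and OSVZ was 1.21 (exact p = 0.0905, adjusted p = 0.204), and that between CP and VZ was -0.94 (exact p = 0.286, adjusted p = 0.367). None passed after adjustment. The ratio of the 3p arms, added after the data were seen, was -0.21 ± 0.31 in OSVZ and 1.51 ± 1.03 in VZ, a difference of -1.72 (exact p = 0.00952, adjusted p = 0.0643). On the 3p strands CP stood at 0.20 ± 0.42, close to OSVZ, with a CP minus OSVZ difference of 0.41 (exact p = 0.0952, adjusted p = 0.171) and a CP minus VZ difference of -1.31 (exact p = 0.0857, adjusted p = 0.171). None of these passed after adjustment either.

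Within the OSVZ of area 17, the outer piece was compared with the inner piece. The outer minus inner differences were 0.23 ± 0.59 for miR-7-5p, -0.45 ± 0.51 for miR-7-3p, -0.78 ± 0.69 for miR-129-5p and -0.62 ± 0.50 for miR-129-3p. No member passed by edgeR (adjusted p from 0.938 to 0.967), where 0% of tested arms were called and 46 had an unadjusted p under 0.05. DESeq2 called 2 arms, neither of them a member. The sets of miR-7-5p disagreed in direction, at -0.51 and 1.37. For miR-129-5p they were -0.07 and -1.28, and its difference turned to 0.21 without OSVZ_17int replicate 2. The median of all tested arms was -0.17 in this comparison.

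Area 17, the primary visual area, was compared with area 18. Over the 3 zones the log2 differences were 0.024 for miR-129-5p, -0.01 for miR-129-3p and -0.15 ± 0.28 for miR-7-3p. By edgeR 0 of 4 arms passed, none of them with an unadjusted p under 0.05 and none called by DESeq2, where 0.0878% of tested arms were called. In VZ, where 0.176% of tested arms were called, miR-129-3p differed by 0.58 ± 0.50 and miR-129-5p by 0.71 ± 0.69. In CP, where 0% were called by edgeR, 8 by DESeq2 and 36 had an unadjusted p under 0.05, they differed by -0.76 ± 0.51 and -0.55 ± 0.69. In OSVZ, also with 0% called by edgeR and DESeq2 and with 29 arms at an unadjusted p under 0.05, all 4 members lay between -0.09 and 0.22.

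None of these area differences passed. The median of all tested arms was -0.30 in VZ and -0.21 in CP. The CP value of miR-129-5p turned to 0.10 without CP_17 replicate 2, and the VZ value of miR-129-3p was 0.14 without the 2 VZ libraries named as standing apart. The CP minus VZ difference of miR-129-3p was 0.74 and 0.21 in area 17 and 2.15 and 1.60 in area 18. The test of the difference between areas gave -1.34 ± 0.71 for miR-129-3p (adjusted p = 0.787 by edgeR) and -1.25 ± 0.97 for miR-129-5p (adjusted p = 0.916). Without single libraries the miR-129-3p value ran from -1.91 to -1.04 and the miR-129-5p value from -2.24 (CP_17 replicate 1 left out) to -0.58 (CP_17 replicate 2 left out), and without the 2 VZ libraries miR-129-3p was at -0.88. It gave -0.11 ± 0.72 for miR-7-3p and 0.10 ± 0.83 for miR-7-5p. None of the 4 passed, where 0.0878% of tested arms were called, and DESeq2 called none of the 4 either.

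The arms whose profile over the 14 libraries was nearest to each member were found by the mean absolute difference in log2 CPM after centring each arm, among arms averaging 10 CPM or more. For miR-7-3p these were miR-767-5p (0.36), miR-340-3p (0.38), miR-323-3p (0.43), miR-708-5p (0.44) and miR-885-5p (0.47), against a median distance of 1.16 over 375 arms. All 5 were called higher in CP against both germinal zones by edgeR, which their choice by likeness to miR-7-3p largely fixes. Its own partner strand was only position 92 in that order, and miR-129-3p was position 63. For miR-7-5p the nearest were miR-17-5p (0.30), miR-26a-5p (0.34), miR-331-3p (0.34), miR-23b-3p (0.36) and miR-17-3p (0.37), against a median of 0.90, and miR-7-3p was position 165. miR-17-5p comes from a cluster known for promoting proliferation, but here it was not called in either CP comparison (0.64 ± 0.38 against VZ, 0.21 ± 0.36 against OSVZ). Among these neighbours of miR-7-5p, edgeR called miR-331-3p (1.31 ± 0.36) and miR-17-3p (1.46 ± 0.43) higher in CP than in VZ. The others did not pass against VZ, and none passed against OSVZ.

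The strands of miR-129 lay closer together. From miR-129-5p the 3p arm was position 4, and from miR-129-3p the 5p arm was position 5, at a distance of 0.60. The nearest arms outside the members were miR-134-5p (0.52), miR-181b-5p (0.56), miR-378-3p (0.60), miR-330-3p (0.67) and miR-539-5p (0.68) for miR-129-5p. For miR-129-3p they were miR-487b-3p (0.44), miR-3653-5p (0.52), miR-378-3p (0.54), miR-383-5p (0.59) and miR-19b-5p (0.60). The medians over all arms were 1.13 from miR-129-5p and 1.24 from miR-129-3p. miR-134, a regulator of dendritic spines, and miR-487b belong to the imprinted cluster near MEG3. Distances include the difference between sets, which libraries of a set share.

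**Figure D4:**
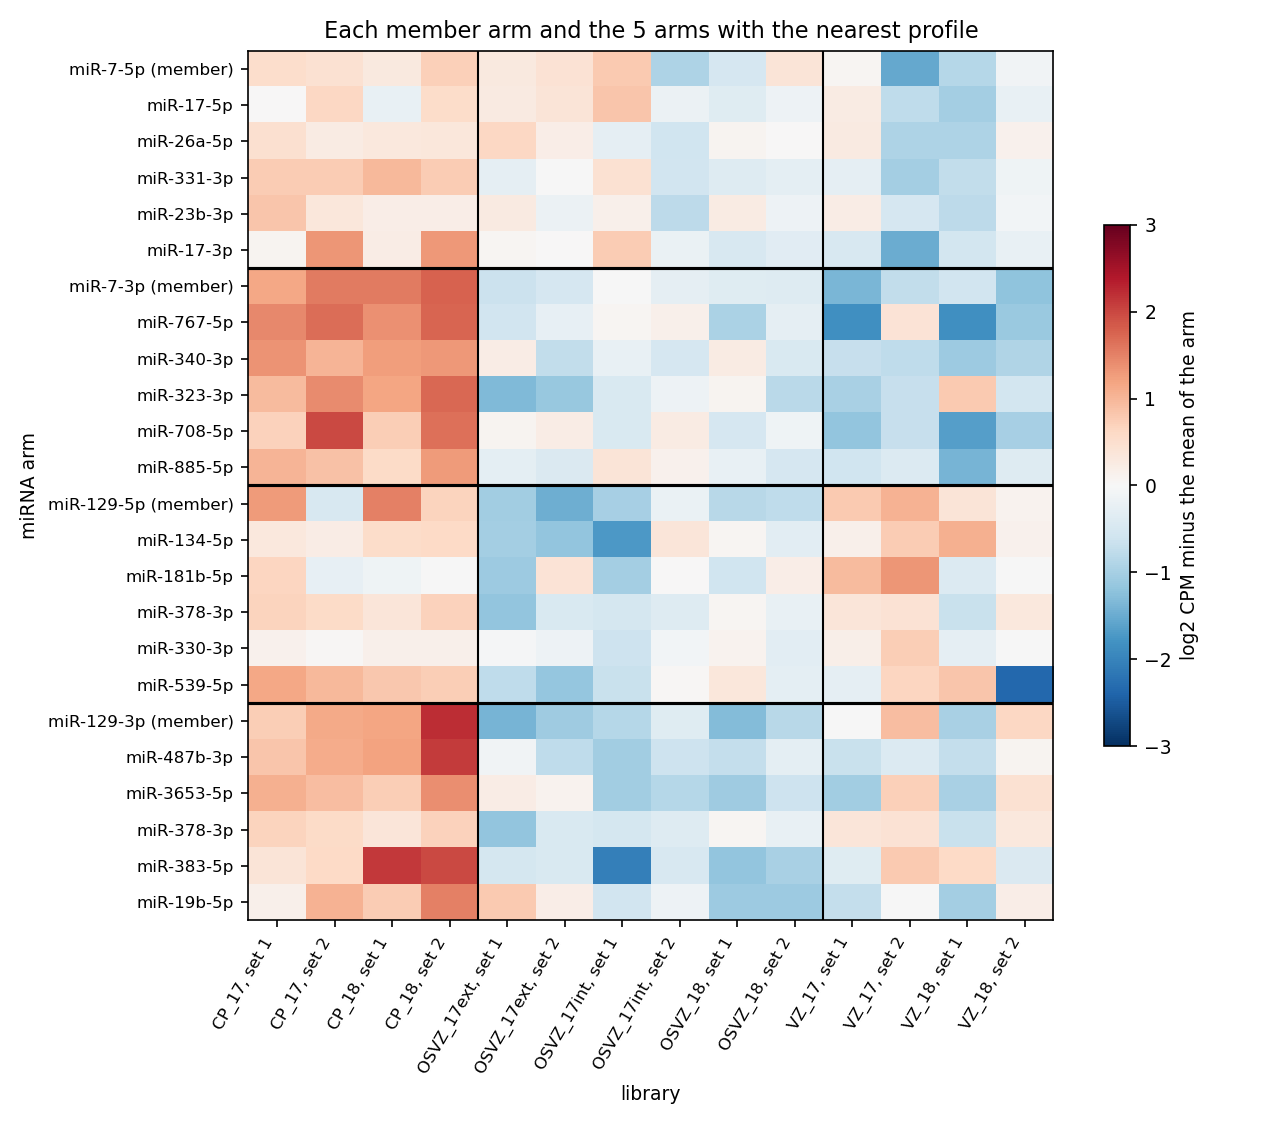
Colour map of log2 CPM minus the arm's own mean, with a row for each member arm and for its 5 nearest arms and a column for each of the 14 libraries, CP left of OSVZ and VZ (red above the mean, blue below). The rows of miR-7-3p and its neighbours (distances 0.36 to 0.47) are red in all 4 CP libraries, and those of miR-7-5p (0.30 to 0.37) are paler.

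miR-671 was examined because it directs the cleavage of CDR1as, the circular RNA that binds miR-7. miR-671-3p averaged 64.2 ± 24.9 CPM in CP, 49.7 ± 24.5 CPM in OSVZ and 39.5 ± 15.1 CPM in VZ, and did not pass for CP against VZ (0.77 ± 0.59, adjusted p = 0.462) or CP against OSVZ (0.51 ± 0.56, adjusted p = 0.768). miR-671-5p, the strand known to cut CDR1as in human cells, averaged 7.85 ± 3.38 CPM in CP, 15.7 ± 8.22 CPM in OSVZ and 20.7 ± 14.9 CPM in VZ. It did not pass either, at -1.34 ± 0.94 (adjusted p = 0.420) and -0.97 ± 0.87 (adjusted p = 0.701). miR-3529, which is read from the strand opposite to a miR-7 hairpin, was not analysed here.

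A list of other neuronal microRNAs gives the setting in CP. Of 35 tested arms from 19 of 20 listed names, 11 were higher in CP than in VZ and 24 did not pass, with a list median of 1.42 against 0.22 over all arms, of which 4.74% were called higher. Against OSVZ 14 were higher and 21 did not pass, with a median of 2.07 against 0.20, where 4.21% of all arms were called higher. The most abundant members were miR-149-5p (0.09 ± 0.38 against VZ, not passing), miR-139-5p (3.35 ± 0.39), miR-138-5p, which restrains dendritic spine growth in rat neurons (3.63 ± 0.39), and miR-218-5p, known from motor neurons (1.70 ± 0.37). For OSVZ against VZ the list median was 0.12, as over all arms. miR-218-5p lay lower in OSVZ than in VZ on average, as did miR-129-3p, with means of 364 ± 201 CPM in OSVZ, against 518 ± 274 CPM in VZ, but its -0.54 ± 0.33 did not pass (adjusted p = 0.538).

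In the progenitor list, 1 of 26 tested arms was higher and 4 were lower in CP than in VZ, where 4.74% of all tested arms were called higher and 2.63% lower, and the list median was -0.85. Against OSVZ 3 were lower and 23 did not pass, where 2.11% of all arms were called lower, with a list median of -0.73. Its abundant members included miR-222-3p, which represses the cell cycle inhibitor p27, at -3.12 ± 0.44 against VZ and -2.85 ± 0.43 against OSVZ. That arm does not stand for the list, as 21 of the 26 arms did not pass against VZ. The arm called higher in CP than in VZ was miR-17-3p (1.46 ± 0.43, adjusted p = 0.0259 by edgeR). Its partner miR-17-5p, at a mean of 9593 CPM, had 0.64 ± 0.38 against VZ and did not pass. Both lists were drawn up with earlier results of these libraries known.

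Marker microRNAs of other cells also moved between the zones. Over all tested arms, 4.74% were called higher and 2.63% lower in CP than in VZ. Against OSVZ these shares were 4.21% and 2.11%. The summed level of miR-204 and miR-211, the list for choroid plexus and pigment epithelium, was 4946 to 7253 CPM in CP, 166 to 957 CPM in OSVZ and 209 to 1953 CPM in VZ, with 1 of 3 tested arms higher in CP in both comparisons. The oligodendrocyte list (miR-219 and miR-338) summed to 398 to 766 CPM in CP, 97.5 to 158 CPM in OSVZ and 115 to 317 CPM in VZ, with 2 of 4 arms higher in CP in both comparisons and 1 lower against VZ. The myeloid and lymphoid list was lower in CP, at 464 to 525 CPM, than in OSVZ (737 to 1283 CPM) and VZ (861 to 1059 CPM). Of its 10 tested arms, 2 were called lower against VZ and 8 did not pass. Against OSVZ 1 was called lower and 9 did not pass. The part of these markers in the CP levels of miR-7 and miR-129 was not tested.

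For miR-7, whose known homes include neuroendocrine cells, the marker miR-375 summed to 1.55 to 18.6 CPM in CP, 0 to 1.46 CPM in OSVZ and 0 to 5.31 CPM in VZ, near the floor of these libraries. For miR-129, tied to cilia, the multiciliated list (the miR-34 and miR-449 families) summed to 11.0 to 32.5 CPM in CP and 9.51 to 35.2 CPM in OSVZ. In VZ it summed to 5.81 and 65.4 CPM in area 17 and to 245 and 193 CPM in area 18. In the same libraries miR-129-3p had 612 and 1173 CPM in VZ_17 and 315 and 940.5 CPM in VZ_18, and the part of those markers in its VZ level was not tested. The endothelial marker miR-126 overlapped between zones, at 1547 to 4504 CPM in CP, 1434 to 5288 CPM in OSVZ and 980.2 to 2794 CPM in VZ. The mural and mesenchymal list summed to 733 to 1175 CPM in CP, 1419 to 4937 CPM in OSVZ and 969 to 1957 CPM in VZ, the erythroid list to 27.5 to 126, 18.9 to 103 and 55.9 to 334 CPM, and the sensory list to 39.7 to 106, 13.0 to 38.5 and 11.6 to 232 CPM in the same order of zones. Calls in the mural and mesenchymal list went both ways. Of its 8 tested arms, 1 was higher and 1 lower in CP than in VZ. Against OSVZ 1 was higher and 2 were lower.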

How the data were processed

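The authors deposited whole-number read counts per microRNA name and arm, 1 column per arm and library. A Qiagen kit with DTT was used on laser-cut pieces and a SOLiD kit with size selection for the libraries, per the labels' protocols. Aligner, genome build and annotation are not given in the sources used here. How reads with several matches were counted is not given either, and near-identical hairpins may share reads. Columns went to set 1 (day 80) or set 2 (day 79) by the spelling of regions in each table. Another 12 value columns, which fit no label, were left out, and 6 of the 20 labelled samples are not analysed here. The fit written for 20 libraries was run on 14. Names in both tables, 828, gave 1656 arms. No region's 2 libraries were copies of each other, with equal counts in 66 (VZ_18) to 122 (VZ_17) of the 1139 tested arms.

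Counts were filtered by region with filterByExpr (1139 arms kept, 517 removed), scaled with TMM and tested with the quasi-likelihood F test of edgeR 4.0.16 in R 4.3.3, in 1 fit of 7 region means with the set as a block (6 residual and 28.1 prior degrees of freedom). OSVZ averaged area 18 with the mean of both area 17 pieces. There were 9 comparisons, and p-values were adjusted by Benjamini-Hochberg over 1139 arms, called under 0.05. CPM values were computed here. Log2 values of each set use a pseudocount of 0.5 CPM, and count ratios a pseudocount of 0.5 counts, tested by exact permutation over libraries of the absolute difference in mean log2 ratio. The edgeR fit was run on simulated counts with changes in CP only and no difference between sets, and only CP against VZ was checked. The ratio tests and the other comparisons were not checked on simulated data. Reads amplified by PCR carry no molecular identifiers, so counts are not independent molecules.

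Labels tie each set to an embryonic day. Deviations from region means correlated within a set in 21 region pairs (median r 0.328 across arms, which are not independent), 20 of them above 0.1, so the block was kept. The members, the lists and the tests were chosen with earlier results of these data known. Arms named in the text are all members, miR-671, up to 4 of the most abundant arms of the neuronal and progenitor lists, and the 5 arms nearest to each member. Alternatives were DESeq2 size factors, library totals, no filter, a mean of at least 10 CPM, no block, the DESeq2 1.42.0 Wald test, and libraries left out.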

Additional observations from a re-analysis of the deposited data

Results flagged for a closer look

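None of the 21 groups of arms by zone and of ratios by zone held a library far enough from the others to stand out by Dixon's criterion, which chance meets in about 5% of such groups.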

How the results depend on the processing

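The calls of miR-7-3p in both CP comparisons and of miR-129-3p against OSVZ kept their direction and side of the threshold under all 7 other settings and without each of the 14 libraries. For CP against VZ, miR-129-3p no longer passed with DESeq2 size factors (0.91), library totals (0.73), no filter (0.91), no replicate block (1.09) or without the 2 VZ libraries (0.79), and ranged from 0.73 to 1.42 without single libraries. miR-129-5p turned to -0.22 with library totals, -0.012 with no filter and -0.068 among arms of at least 10 CPM (-0.26 to 0.62 without single libraries), and miR-7-5p ranged from 0.51 to 1.56. For CP against OSVZ, miR-129-5p no longer passed with library totals (1.41) or no filter (1.52), and ranged from 1.08 to 2.05. For OSVZ against VZ, miR-129-5p passed with DESeq2 (-1.50) and miR-129-3p among arms of at least 10 CPM (-1.32) and with DESeq2 (-1.26), with ranges of -1.70 to -1.19 and -1.44 to -0.90. The cause of these changes was not tested.

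Arms called for CP against VZ, 84, became 53 with no replicate block and 172 with DESeq2, and 53 to 120 without single libraries (53 without CP_17 replicate 2). For CP against OSVZ, 72 became 129 with DESeq2, 125 without the 2 VZ libraries, and 44 to 100 (44 without OSVZ_18 replicate 2, 45 without CP_17 replicate 1, 48 without OSVZ_18 replicate 1). For OSVZ against VZ, 1 became 0 with DESeq2 size factors, library totals or no replicate block, 6 among arms of at least 10 CPM, 27 with DESeq2, 2 without the 2 VZ libraries, and 0 to 24. For outer against inner OSVZ, 0 became 2 with DESeq2, 6 without the 2 VZ libraries, and 0 to 1. For area 17 against area 18, 1 became 11 with no filter, 0 with no replicate block, 18 with DESeq2, 3 without the 2 VZ libraries, and 0 to 24. In VZ 2 became 1 with DESeq2 size factors, 5 with no filter, 22 with DESeq2, and 0 with at least 10 CPM, no replicate block or without the 2 VZ libraries, and 1 to 26. In OSVZ 0 became 1 without the 2 VZ libraries, and 0 to 1. In CP 0 became 3 with no filter, 8 with DESeq2, 3 without the 2 VZ libraries, and 0 to 3. For the difference between areas in CP against VZ, 1 became 4 with no filter, 5 with DESeq2, 0 with at least 10 CPM, no replicate block or without the 2 VZ libraries, and 0 to 18. For CP against VZ, arms called higher and lower were 54 and 30 with TMM, 42 and 34 with DESeq2 size factors, 32 and 37 with library totals, 42 and 44 with no filter, 46 and 47 with at least 10 CPM, 76 and 96 with DESeq2, and 34 and 46 without the 2 VZ libraries. For CP against OSVZ they were 48 and 24, against 44 and 35, 34 and 38, 34 and 26, 49 and 43, 70 and 59, and 68 and 57 in the same order.

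Values near 0 that passed nowhere changed sign. Over both areas these were, with library totals, miR-7-5p (-0.22) and miR-129-5p (-0.21, and -0.061 without the 2 VZ libraries), and miR-129-3p with DESeq2 size factors (0.053), at least 10 CPM (0.067) and DESeq2 (0.053). In VZ they were miR-7-5p (0.35) and miR-7-3p (0.16) without the 2 VZ libraries. In OSVZ they were, with library totals, miR-7-5p (-0.064), miR-7-3p (-0.19) and miR-129-3p (-0.064), and miR-7-3p with no filter (-0.037) and without the 2 VZ libraries (-0.00157). In CP it was miR-7-5p with DESeq2 size factors (0.033), no filter (0.032), at least 10 CPM (0.033) and DESeq2 (0.033) and without the 2 VZ libraries (0.00557). For the difference between areas they were miR-7-5p without the 2 VZ libraries (-0.34) and miR-7-3p with library totals (0.30) and no filter (0.032).

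Without single libraries, area values ranged for miR-7-5p from -0.32 to 0.33 over both areas, -1.24 to 0.66 in VZ, -0.35 to 0.71 in OSVZ and -0.36 to 0.33 in CP. For miR-7-3p they ranged from -0.28 to 0.050 over both areas, -0.56 to 0.40 in VZ and -0.21 to 0.070 in OSVZ. For miR-129-5p they ranged from -0.32 to 0.23 over both areas, -0.59 to 0.12 in OSVZ and -1.50 to 0.10 in CP, and for miR-129-3p from -0.11 to 0.17 over both areas and -0.19 to 0.32 in OSVZ. Differences between areas ranged from -0.57 to 1.35 for miR-7-5p and -0.64 to 0.27 for miR-7-3p, and outer minus inner OSVZ from -0.25 to 1.38 for miR-7-5p and -1.30 to 0.21 for miR-129-5p. The 3p to 5p ratio of miR-7 ranged from -0.43 to 0.31 for OSVZ against VZ and from 1.02 to 1.77 for CP against VZ. The miR-129-5p to miR-7-5p ratio ranged from -1.26 to -0.47 for CP against VZ.

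None of the 9 ratio tests passed with 5 counts added or with labels permuted within each replicate block, where miR-7 in CP against OSVZ had an adjusted p of 0.125 by exact permutation. For CP against VZ, permuting within blocks leaves too few arrangements for any p under 0.05, so those tests could not pass whatever the values. With 2 libraries per region, the spread between libraries limits all of these values.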
